A study of Ambystoma mexicanum with 12 samples.

Results

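Solute carriers are the membrane proteins that move sugars, amino acids, ions, metals, vitamins and metabolites across the cell surface and across the membranes of mitochondria, lysosomes, the ER and the Golgi. Their symbols give a family number after the letters SLC and a member number after the letter A. The set described here holds every gene of the count table whose annotated symbol has this form, apart from SLC4A2, grouped by family number. Among the 36917 genes of the table, 260 loci carried such a symbol, and 180 of these passed the filter of at least 10 counts in at least 6 libraries. These 180 loci, of 25879 tested genes, carry 169 different symbols from 43 families. In 11 cases more than 1 tested locus carries a symbol, and these are given by locus, since copies of a gene and pieces of a gene were not told apart. The 80 loci that did not pass held at most 131 counts over all 12 libraries, and 14 of them had no count. Symbols come from the reference gene set, so a carrier annotated under another name is missing. Families such as SLC35 also have members lettered B to F, which the form leaves out. Of the 180 loci, 5 are named after a carrier without being a carrier: SLC2A4RG, SLC4A1AP, SLC7A6OS, SLC9A3R1 and SLC9A3R2. The remaining 175 loci are the carriers proper.

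RNA came from the mesenchyme of right forelimb blastemas, the mounds of growing tissue that rebuild an amputated limb, of albino axolotls. The 6 Am580 libraries are from large juveniles kept in 25 nM Am580, an agonist selective for retinoic acid receptor alpha, and the 6 DMSO libraries are from animals kept in the vehicle alone. Both groups were amputated through the middle of the lower forelimb, rested for 24 h, treated for 5 days and returned to plain solution for 24 h before the blastemas were taken and stripped of epidermis. Each library is 1 blastema of 1 animal, and ages are not given in the sources used here. The Am580 animals sequenced were those whose other forelimb later showed the most duplication, and the DMSO animals had none, so the choice of animals cannot be told apart from the treatment.

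As background, carriers work by alternating access: the protein binds its solute on one side of a membrane, changes shape and releases it on the other. Some only let a solute run down its gradient, as the glucose carrier SLC2A1 does. Others couple it to sodium, protons or a second solute that moves the other way, as the amino acid exchangers of family SLC7 do with their partner SLC3A2. Family SLC25, the largest, sits in the inner mitochondrial membrane and passes nucleotides, phosphate and the intermediates of metabolism. Regenerating tissue is known for rapid growth, which draws on such uptake, and bone-resorbing osteoclasts and erythroid cells each rely on carriers of their own.

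Total counts per library ran from 34279044 to 43793138 with Am580 and from 27226012 to 40794002 with DMSO, and the exact permutation test, two-sided, gave p = 0.128 for the difference of means. A count of 0, taken as at most 3 counts, allows 0.0637 to 0.111 CPM (counts scaled to a library of fixed size). Connective tissue markers summed to 8380 to 14000 CPM with Am580 and 11300 to 18900 CPM with DMSO, so the defining markers of the labelled tissue were present in every library. The epidermal markers found were low, at 10.6 to 28.8 CPM with Am580 and 19.2 to 119 CPM with DMSO, the highest being DMSO replicate 1. No keratin of the list was found by its symbol, so this sum cannot show how much epidermis was left. Muscle markers were abundant in all 12 libraries, at 6680 to 21500 CPM with Am580 and 9600 to 23600 CPM with DMSO. The first principal component (28.6% of the variance) held Am580 libraries at -58.3 to -46.6 and DMSO libraries at 37.5 to 65. On the second principal component Am580 replicates 1, 3 and 6 (30.2 to 71.3) lay apart from Am580 replicates 2, 4 and 5 (-46.7 to -38.1). DMSO libraries were spread along it as well, from -43.8 in replicate 2 to 39.8 in replicate 4. Values below are TMM-scaled CPM, and log2 fold changes are Am580 over DMSO from edgeR's quasi-likelihood test with Benjamini-Hochberg adjustment over all 25879 genes. A gene with an adjusted p under 0.05 is counted as called and described as having risen or fallen. Of the marker lists above, 2 of 6 tested epidermal loci fell and none rose, with a median log2 fold change of -1.07. Of 7 tested connective tissue loci, 1 fell and none rose, with a median of -0.135.

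Of the 180 loci, 32 fell and 10 rose with Am580. The 42 changed loci are 23.3% of the set, beside 14.1% of all tested genes and 16.5% of tested genes that have a reference transcript. The falls make up 17.8% of the set, beside 7.21% of all tested genes, and the rises 5.56%, beside 6.93%. The median log2 fold change of the set was -0.119, with 119 loci below and 61 above 0. Over all tested genes the median was 0.00432, with 12798 genes below and 13081 above 0. Most falls were moderate: 23 of the 32 were smaller than 2-fold, and 9 falls and 2 rises were larger. Those 2 rises were SLC46A2 and SLC27A2, and SLC27A2 passed the count filter through the Am580 libraries, where it is high. Changes of at least 2-fold thus made up 6.11% of the set, beside 6.09% of all tested genes. In 28 loci, or 15.6% of the set, beside 8.6% of all tested genes, the Am580 and DMSO libraries did not overlap. These were 20 lower and 8 higher with Am580, and all but SLC7A1 passed the test. Leaving out each library in turn gave 33 to 47 called loci, with 25 to 36 falls and 7 to 11 rises. The highest counts came without Am580 replicate 1, at 36 falls and 11 rises, and 39 of the 42 calls were shared. Calls over all genes were then 3842, beside 3660 with all libraries. Shares of called loci in the groups below stand beside the same 14.1% of all tested genes. Groups of 10 or fewer loci are too small for their shares to be read against it. Counts of negative log2 fold changes in the groups stand beside the 12798 of 25879 tested genes.

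**Figure D1:**
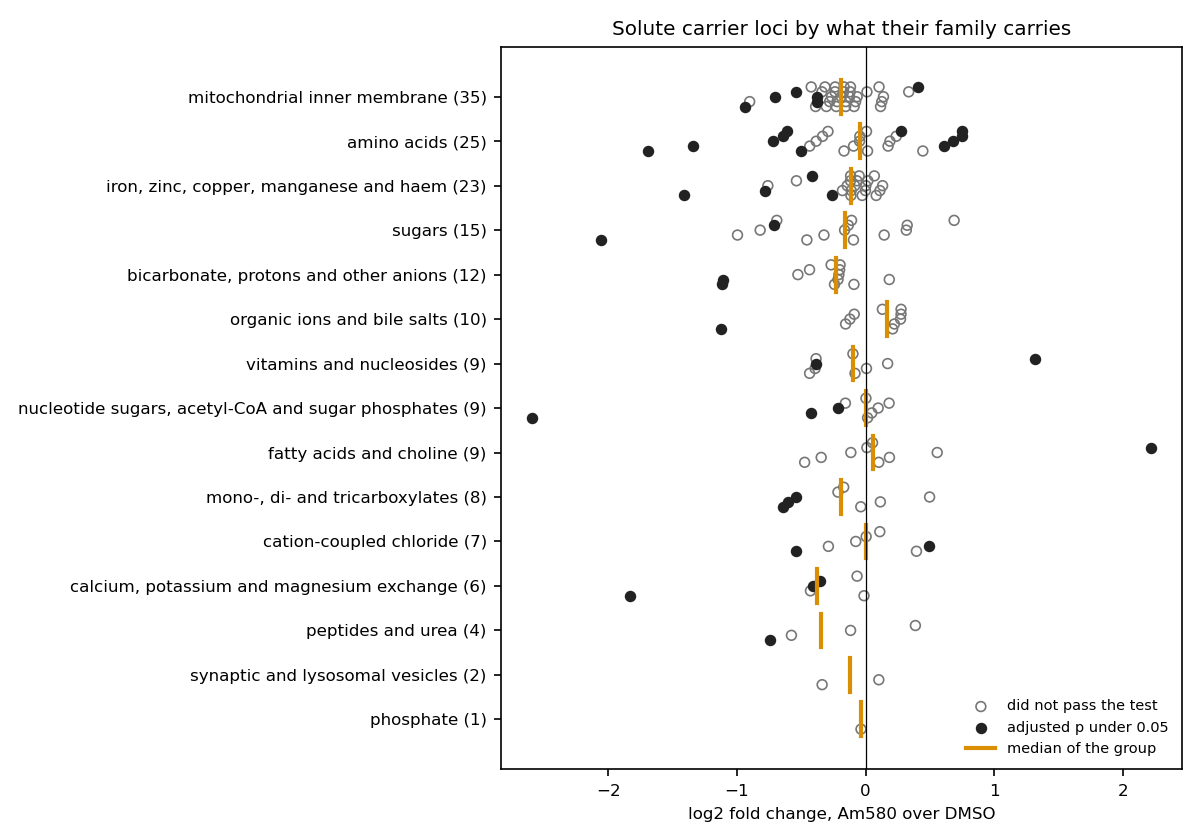
Log2 fold change (Am580 over DMSO, horizontal axis) of the 175 carrier loci, in rows by what the family carries, with the number of loci in brackets. Filled points passed the test and the bar is the median of the row; most filled points lie left of 0. The amino acid row holds 6 falls and 5 rises, the mitochondrial row 5 falls and 1 rise, the chloride and vitamin rows 1 of each, and the fatty acid row 1 rise alone.

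The largest fall was that of SLC37A2, which exchanges glucose 6-phosphate for phosphate and, in mouse, is known from macrophages and from the secretory lysosomes of osteoclasts. The locus MSTRG.9062 lies on scaffold AMEXG_0030002072 from 2326689 to 2810096, on the minus strand, in the build AmexG_v3.0.0. SLC37A2 had 71.3, 75.2, 74.6, 95.7, 83.4 and 97.6 CPM in Am580 replicates 1 to 6, and 401, 512, 426, 426, 654 and 577 CPM in DMSO replicates 1 to 6. Every Am580 library was far below every DMSO library. The log2 fold change of SLC37A2 was -2.59 ± 0.14 (SE, n = 6 each, edgeR adjusted p = 2.38e-07), a 6.02-fold lower level with Am580. Markers of osteoclasts, the multinucleate cells that resorb bone and cartilage, moved the same way. All 9 tested osteoclast marker loci fell, with a median log2 fold change of -2.46, and the summed level of the 9 listed symbols was 408 to 883 CPM with Am580 and 2600 to 4030 CPM with DMSO. None of these markers was at 0 throughout. Am580 replicate 6 and DMSO replicate 5 held the highest level of both SLC37A2 and the osteoclast list in their groups. The sum of the macrophage markers overlapped between the groups, at 832 to 1220 CPM with Am580 and 1160 to 1610 CPM with DMSO. Of 6 tested loci, 2 were higher and 2 lower, and single loci were apart in both directions. CSF1R had 331 to 456 CPM with Am580 and 618 to 882 CPM with DMSO. The CD68 locus MSTRG.22819 had 152 to 281 CPM with Am580 and 288 to 533 CPM with DMSO. MARCO had 145 to 189 CPM with Am580 and 49.9 to 99.1 CPM with DMSO. The part of these cell types in the fall of SLC37A2 was not tested. In RNA from whole tissue, fewer cells of a type and less RNA per cell cannot be told apart. The other tested SLC37 loci are 2 in number and did not pass the test.

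**Figure D2:**
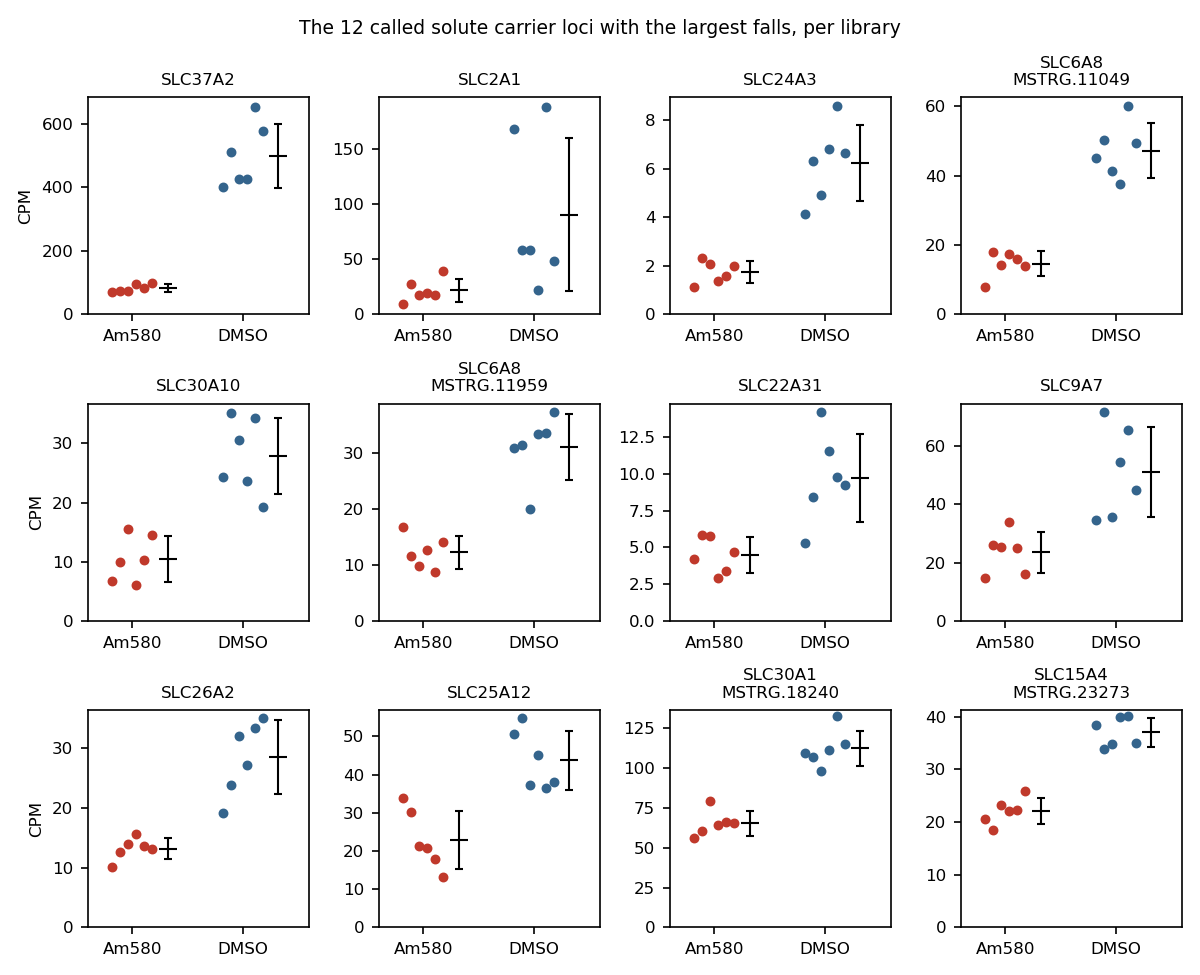
CPM in each library (vertical axes, each from 0) for the 12 loci with the largest falls among those that passed the test, Am580 in red and DMSO in blue. Replicates 1 to 6 run from left to right within a group, and the black mark is the mean with its SD; 10 of the 12 loci show no overlap, and SLC2A1 and SLC22A31 do.

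Sugar carriers count 15 loci, of which 2 fell and none rose (13.3% called, near the 14.1% of all tested genes), and their median log2 fold change was -0.163. SLC2A1, known as GLUT1, the basal glucose carrier of most tissues, had 9.21, 27.6, 17.2, 19.6, 17.5 and 39.4 CPM in Am580 replicates 1 to 6, and 168, 58.1, 58.4, 21.9, 188 and 48.2 CPM in DMSO replicates 1 to 6. DMSO replicates 1 and 5 were well above the other 4 DMSO libraries, and DMSO replicate 4 lay within the Am580 range. Its log2 fold change was -2.06 ± 0.51 (SE, edgeR adjusted p = 0.0152), and the call held when any single library was left out. SLC2A3, or GLUT3, the other glucose carrier named, ranged from 3.23 to 57.8 CPM with Am580 and from 2.07 to 31.7 CPM with DMSO. The SLC2A3 groups overlapped throughout, with a log2 fold change of 0.69 ± 0.68 (SE, edgeR adjusted p = 0.598). The libraries high in SLC2A3 were in part those high in SLC2A1: Am580 replicate 6 was highest and Am580 replicate 1 lowest in both genes, and DMSO replicates 1 and 5 were the top pair in both. SLC5A3, which takes up the osmolyte myo-inositol with sodium, had 17.2, 22.9 and 25.9 CPM with Am580 (lowest, median and highest) and 32.6, 36.2 and 40.1 CPM with DMSO. The groups did not overlap, and the log2 fold change of SLC5A3 was -0.71 ± 0.10 (SE, edgeR adjusted p = 0.000306). No other sugar carrier passed the test, although SLC45A3 had a log2 fold change of -0.99 (edgeR adjusted p = 0.0637) and SLC2A4, the insulin-responsive GLUT4 of mammals, -0.82 (edgeR adjusted p = 0.0619).

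Amino acid carriers, grouped by family number, changed in both directions. Of 25 loci, 6 fell and 5 rose (44% called, beside 14.1% of all tested genes), and the median log2 fold change was -0.05. The 11 calls include 2 loci of the creatine carrier SLC6A8 and 1 of SLC43A3, which carries purine nucleobases in mammals. SLC6A8 takes up creatine, the energy buffer of muscle, nerve and other cells with bursts of ATP use, and both loci with this symbol fell. The SLC6A8 locus MSTRG.11049 had 7.99, 15.1 and 18 CPM with Am580 (lowest, median and highest) and 37.5, 47.2 and 60 CPM with DMSO. MSTRG.11959 had 8.64, 12.1 and 16.8 CPM with Am580 and 19.9, 32.3 and 37.3 CPM with DMSO. Neither locus overlapped between groups. Their log2 fold changes were -1.69 ± 0.18 for the SLC6A8 locus MSTRG.11049 (SE, edgeR adjusted p = 3.42e-05) and -1.34 ± 0.18 for MSTRG.11959 (SE, edgeR adjusted p = 0.00019). Muscle is known for its use of creatine, and the summed muscle markers overlapped between the groups. Of 16 tested muscle loci, 1 rose and none fell. These loci carry only 8 symbols, since TTN, DES and MYLPF have several loci each. The part of muscle in the fall of SLC6A8 was not tested.

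The cationic amino acid carriers SLC7A1, SLC7A2 and SLC7A3 bring arginine and lysine into the cell, and all were lower on average with Am580. SLC7A3 had 11.5, 14.7 and 25 CPM with Am580 and 20.1, 26 and 27 CPM with DMSO, and its log2 fold change was -0.64 (edgeR adjusted p = 0.0303). SLC7A2 had 1.27 to 2.12 CPM with Am580 and 1.89 to 4.12 CPM with DMSO (log2 fold change -0.72, edgeR adjusted p = 0.0443). In both of these the libraries of the groups overlapped. SLC7A1 had 30.5 to 52 CPM with Am580 and 52.6 to 79.5 CPM with DMSO; the groups did not overlap, but the log2 fold change of -0.43 did not pass the test (edgeR adjusted p = 0.0561). Among the exchangers that pair with SLC3A2, SLC7A8 (LAT2, for neutral amino acids) fell and SLC7A7 (y+LAT1, which exports cationic amino acids and is lost in lysinuric protein intolerance) rose. SLC7A8 had 111, 147 and 170 CPM with Am580 and 178, 211 and 290 CPM with DMSO, and the groups did not overlap (log2 fold change -0.61 ± 0.13, SE, edgeR adjusted p = 0.00682). SLC7A7 had 56.9, 76.6 and 80.7 CPM with Am580 and 41.7, 46.3 and 51.8 CPM with DMSO, and the groups did not overlap (log2 fold change 0.68 ± 0.09, SE, edgeR adjusted p = 0.000265). The third such exchanger, SLC7A5 (LAT1), had 17.3 to 26.7 CPM with Am580 and 14.4 to 20.9 CPM with DMSO (log2 fold change 0.17, 95% interval -0.06 to 0.41, edgeR adjusted p = 0.407). SLC3A2 itself had 272 to 334 CPM with Am580 and 318 to 482 CPM with DMSO and did not pass the test (log2 fold change -0.29, edgeR adjusted p = 0.0813).

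SLC38A2, a sodium-coupled carrier of small neutral amino acids that is known to be induced when amino acids run short, had 39.2, 42.2 and 51.8 CPM with Am580 and 55, 64.2 and 68.4 CPM with DMSO. Every Am580 library was below every DMSO library, and the log2 fold change of SLC38A2 was -0.50 ± 0.09 (SE, edgeR adjusted p = 0.00169). Of the same family, SLC38A10 rose: it had 51.7, 68.8 and 72.8 CPM with Am580 and 31.5, 40.2 and 44.6 CPM with DMSO, again without overlap. Its log2 fold change was 0.75 ± 0.12 (SE, edgeR adjusted p = 0.0007). SLC38A9, the arginine sensor on lysosomes that acts upstream of mTORC1, rose slightly, with 22.9 to 29.6 CPM with Am580 and 18.3 to 22.6 CPM with DMSO (log2 fold change 0.28, edgeR adjusted p = 0.0337). In family SLC43, 2 of 3 loci rose. SLC43A2 (LAT4), which lets branched-chain amino acids and other large neutral ones run down their gradient, had 196, 226 and 290 CPM with Am580 and 131, 152 and 183 CPM with DMSO. The groups did not overlap, and the log2 fold change of SLC43A2 was 0.61 ± 0.12 (SE, edgeR adjusted p = 0.0033). SLC43A3 belongs to the same family by sequence but carries purine nucleobases in mammals, and it had 18.2, 20.1 and 21.8 CPM with Am580 and 10.02, 12.03 and 12.8 CPM with DMSO. Again without overlap, the rise of SLC43A3 was 0.75 ± 0.07 on the log2 scale (SE, edgeR adjusted p = 1.99e-05). SLC1A4, a carrier of alanine and serine, was low and did not pass the test, at 1.24 to 3.87 CPM with Am580 and 1.37 to 3.08 CPM with DMSO. The same held for SLC6A6, the taurine carrier, at 0.243 to 0.944 CPM with Am580 and 0.178 to 1.42 CPM with DMSO.

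**Figure D3:**
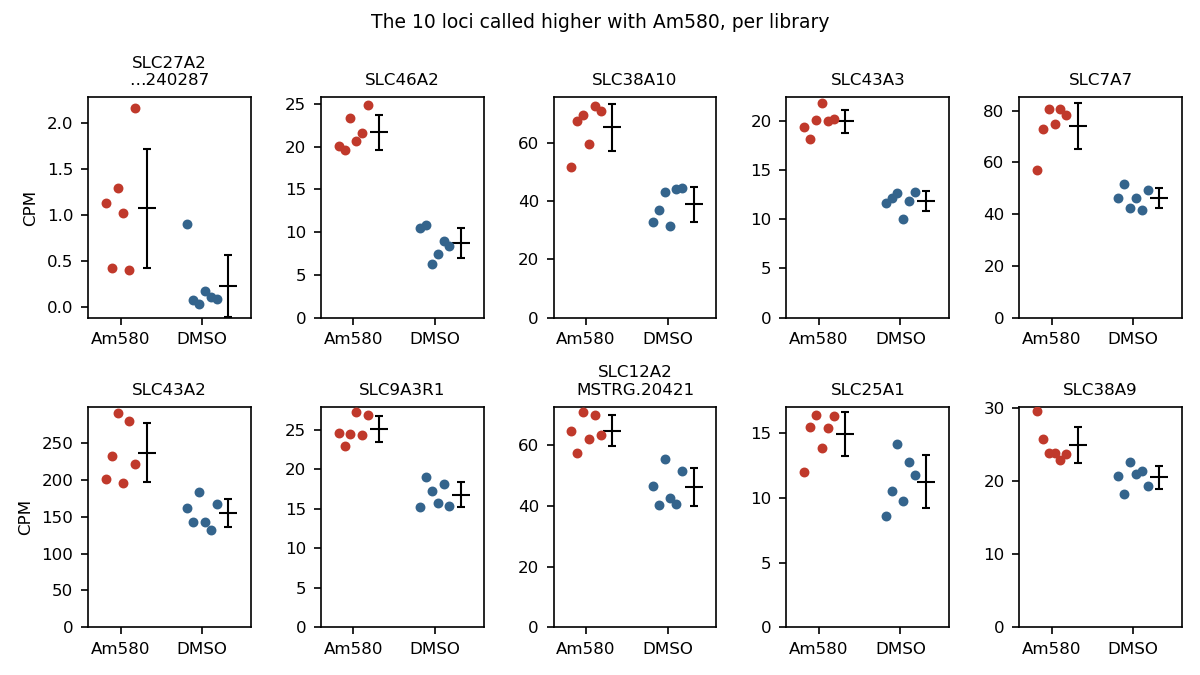
CPM in each library (vertical axes, each including 0) for the 10 loci that rose, Am580 in red and DMSO in blue, replicates 1 to 6 from left to right within a group, with the mean and SD in black. All but SLC27A2 and SLC25A1 show no overlap; in SLC27A2, DMSO replicate 1 at 0.908 CPM lies among the Am580 libraries.

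Outside the amino acid group 5 loci rose, and they have no substrate in common. SLC46A2, known in mouse from thymic stroma and related to the folate carrier SLC46A1, had 19.6, 21.1 and 24.8 CPM with Am580 and 6.28, 8.67 and 10.9 CPM with DMSO. It was the clearest rise, and the groups did not overlap (log2 fold change 1.31 ± 0.13, SE, edgeR adjusted p = 1.86e-05), a 2.48-fold higher level. SLC12A2, or NKCC1, brings sodium, potassium and chloride into the cell and helps to set its volume. Its locus MSTRG.20421 had 57.6, 64.2 and 71.1 CPM with Am580 and 40.5, 44.5 and 55.6 CPM with DMSO (log2 fold change 0.49 ± 0.09, SE, edgeR adjusted p = 0.003). The other tested SLC12A2 locus, MSTRG.3964, had 11.8 to 20.4 CPM with Am580 and 9.75 to 15.7 CPM with DMSO (log2 fold change 0.40, edgeR adjusted p = 0.108), and passed the test only without Am580 replicate 1 (edgeR adjusted p = 0.0341). SLC9A3R1, a scaffold that anchors sodium-proton exchangers at the membrane and no carrier itself, had 23 to 27.2 CPM with Am580 and 15.2 to 19 CPM with DMSO (log2 fold change 0.58 ± 0.08, SE, edgeR adjusted p = 0.000213). Neither SLC9A3R1 nor the SLC12A2 locus MSTRG.20421 overlapped between groups. SLC25A1, which exports citrate from mitochondria for lipid synthesis, had 12 to 16.4 CPM with Am580 and 8.56 to 14.2 CPM with DMSO (log2 fold change 0.41, edgeR adjusted p = 0.0477).

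SLC27A2, an acyl-CoA synthetase for very long-chain fatty acids, had the largest fitted rise and the lowest level of the 10 loci that rose. Its locus AMEXTC_0340000240287 had 1.13, 0.429, 1.29, 1.02, 0.403 and 2.17 CPM in Am580 replicates 1 to 6, and 0.908, 0.0738, 0.0296, 0.176, 0.105 and 0.0925 CPM in DMSO replicates 1 to 6. The DMSO libraries other than replicate 1 were near the level a count of 0 allows. The log2 fold change of SLC27A2 was 2.22 ± 0.69 (SE, edgeR adjusted p = 0.0492); without DMSO replicate 1 the adjusted p was 0.0012, and without Am580 replicate 6 it was 0.105. This locus held 15 to 89 counts with Am580 and 1 to 28 counts with DMSO, so it passed the filter through the Am580 libraries, where it is high, and only 1 DMSO library reached 10 counts. Its call and its place among the rises therefore depend on that filter, and with no filter the SLC27A2 call was lost (edgeR adjusted p = 0.0618). Of the 180 loci, 2 had at most 2 libraries of a group at 10 counts, and of these only SLC27A2 was called. DMSO replicate 1 was also the library with the highest epidermal markers, and the part of these in its SLC27A2 level was not tested. The other SLC27A2 locus was at 0.457 to 0.925 CPM with Am580 and 0.118 to 1.05 CPM with DMSO and did not pass the test. Of the remaining 7 loci for fatty acids and choline, including the choline carrier SLC44A1 at 24.9 to 31.5 CPM with Am580 and 21.4 to 31 CPM with DMSO, none passed.

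Carriers of calcium, potassium and magnesium were few, and all 6 had a negative log2 fold change, with 3 falls and a median of -0.381. The share called was 50%, beside 14.1% of all tested genes, and 6 loci are too few for it to be read against that. SLC24A3, or NCKX3, which extrudes calcium with potassium in exchange for sodium, had 1.13, 1.79 and 2.32 CPM with Am580 and 4.12, 6.47 and 8.56 CPM with DMSO. The groups did not overlap, and the log2 fold change of SLC24A3 was -1.83 ± 0.21 (SE, edgeR adjusted p = 7.32e-05). Both tested members of the magnesium family fell by less: SLC41A1 had 10.2 to 13 CPM with Am580 and 15.2 to 17.1 CPM with DMSO (log2 fold change -0.41, edgeR adjusted p = 0.00217). SLC41A2 had 10.4 to 12.4 CPM with Am580 and 11.6 to 16.3 CPM with DMSO (log2 fold change -0.35, edgeR adjusted p = 0.0219). The groups were apart in SLC41A1 and overlapped in SLC41A2.

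Among the 12 carriers of bicarbonate, protons and other anions, 2 fell, none rose (16.7% called, near the 14.1% of all tested genes), and 11 had a negative log2 fold change. SLC9A7, a sodium- or potassium-proton exchanger of the Golgi, had 14.9, 25.2 and 33.9 CPM with Am580 and 34.8, 49.7 and 71.6 CPM with DMSO. The highest Am580 library was just under the lowest DMSO library, and the log2 fold change of SLC9A7 was -1.12 ± 0.23 (SE, edgeR adjusted p = 0.00565). SLC26A2 supplies the sulfate that cartilage proteoglycans need, and its loss in people causes diastrophic dysplasia. It had 10.2, 13.4 and 15.7 CPM with Am580 and 19.1, 29.7 and 35.1 CPM with DMSO, and the groups did not overlap (log2 fold change -1.11 ± 0.15, SE, edgeR adjusted p = 0.000233). Cartilage markers overlapped widely, at 94.2 to 327 CPM with Am580 and 78.8 to 696 CPM with DMSO, and none of 6 tested cartilage loci passed the test. Their median log2 fold change was -0.563, and the part of cartilage in the fall of SLC26A2 was not tested. The bicarbonate carrier SLC4A7 had 23 to 37.4 CPM with Am580 and 25.3 to 32.6 CPM with DMSO (log2 fold change 0.18, edgeR adjusted p = 0.343), and passed the test only without Am580 replicate 1 (edgeR adjusted p = 0.0276). Of 7 tested loci of the chloride family SLC12, 1 rose and 1 fell (28.6% called, of too few loci to be read against the 14.1%). The fall was that of SLC12A9, which has no settled substrate, with 15.3 to 18.6 CPM with Am580 and 18.8 to 29.8 CPM with DMSO (log2 fold change -0.54, edgeR adjusted p = 0.00703).

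Metal carriers fell or did not pass the test. Of 23 loci for iron, zinc, copper, manganese and haem, 4 fell and none rose (17.4% called, near the 14.1% of all tested genes), and their median log2 fold change was -0.112. Of the falls, 3 were among the 9 loci of family SLC30, whose members carry zinc or manganese. None of the 8 loci of family SLC39, the zinc importers, passed the test. The difference between the families was not tested. SLC30A10, a manganese exporter, had 6.06, 10.1 and 15.5 CPM with Am580 and 19.2, 27.4 and 35.2 CPM with DMSO, and the groups did not overlap (log2 fold change -1.41 ± 0.24, SE, edgeR adjusted p = 0.00144). SLC30A1 exports zinc at the cell surface and is known to be induced by zinc. Its locus MSTRG.18240 had 56, 64.8 and 79.2 CPM with Am580 and 98.5, 110.4 and 132 CPM with DMSO, and the groups did not overlap (log2 fold change -0.78 ± 0.09, SE, edgeR adjusted p = 8.24e-05). A second SLC30A1 locus, MSTRG.18239, overlaps it by 11064 bases on the opposite strand and was at 0.486 to 1.17 CPM with Am580 and 0.925 to 1.66 CPM with DMSO (log2 fold change -0.76, edgeR adjusted p = 0.0524). SLC30A9, of mitochondria, had 10.05 to 12.6 CPM with Am580 and 12.4 to 16.1 CPM with DMSO (log2 fold change -0.41, edgeR adjusted p = 0.00549). SLC31A1, the copper importer CTR1, had 44.9 to 56 CPM with Am580 and 52.9 to 64.6 CPM with DMSO (log2 fold change -0.26, edgeR adjusted p = 0.0316). In SLC30A9 and SLC31A1 the libraries of the groups overlapped. The iron carriers did not pass the test. SLC11A1, an iron and manganese carrier of macrophage phagosomes, had 23.6 to 86.9 CPM with Am580 and 53.8 to 105 CPM with DMSO (log2 fold change -0.54, edgeR adjusted p = 0.213). SLC11A2, the importer DMT1, had 35.8 to 48.7 CPM with Am580 and 36.7 to 48.6 CPM with DMSO (log2 fold change -0.05, 95% interval -0.23 to 0.13, edgeR adjusted p = 0.798). SLC40A1, the iron exporter ferroportin, ranged from 14.7 to 56.9 CPM with Am580 and from 25.3 to 50.8 CPM with DMSO (edgeR adjusted p = 0.84).

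The mitochondrial family SLC25 is the largest of the set, with 35 loci, of which 5 fell and 1 rose (17.1% called, near the 14.1% of all tested genes). Of the 35 loci, 28 had a negative log2 fold change, and the median was -0.189. SLC25A12, or aralar, passes aspartate out of mitochondria in exchange for glutamate and so serves the malate-aspartate shuttle. It had 13.2, 21.1 and 33.8 CPM with Am580 and 36.4, 41.5 and 54.7 CPM with DMSO, and the groups did not overlap (log2 fold change -0.93 ± 0.21, SE, edgeR adjusted p = 0.00799). SLC25A32, needed for mitochondrial folate and FAD, had 3.39 to 6.93 CPM with Am580 and 6.29 to 10.3 CPM with DMSO (log2 fold change -0.70, edgeR adjusted p = 0.014). SLC25A24, which exchanges ATP-magnesium for phosphate, had 7.17 to 12.2 CPM with Am580 and 13 to 18.4 CPM with DMSO (log2 fold change -0.54, edgeR adjusted p = 0.0137). A smaller fall was that of SLC25A44, a carrier of branched-chain amino acids, with 15.5 to 24.4 CPM with Am580 and 24.3 to 29.1 CPM with DMSO (log2 fold change -0.38, edgeR adjusted p = 0.0209). SLC25A14, also called UCP5, had 14.7 to 19.1 CPM with Am580 and 19.98 to 23.6 CPM with DMSO (log2 fold change -0.37, edgeR adjusted p = 0.00353). The groups were apart in SLC25A24 and SLC25A14 and overlapped in SLC25A32 and SLC25A44. The members with the highest levels per kilobase of exon, the phosphate carrier SLC25A3 and the ADP/ATP carriers SLC25A4, SLC25A5 and SLC25A6, did not pass the test. SLC25A5 had 1089 to 1291 CPM with Am580 and 1098 to 1310.0 CPM with DMSO (log2 fold change -0.07, 95% interval -0.20 to 0.07, edgeR adjusted p = 0.632). SLC25A3 had 612 to 669 CPM in 5 Am580 libraries and 1013 CPM in Am580 replicate 1, and 761 to 948 CPM with DMSO. The log2 fold change of SLC25A3 was -0.26 (edgeR adjusted p = 0.201) with all libraries, and it passed the test only without Am580 replicate 1 (edgeR adjusted p = 0.00372). SLC25A6 had 123 CPM in Am580 replicate 1 as well, 43.3 to 75.2 CPM in the other Am580 libraries, and 49.4 to 80.1 CPM with DMSO.

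Carriers of lactate and other carboxylates, 8 loci, gave 3 falls, all in family SLC16, and no rise (37.5% called, beside 14.1% of all tested genes). With 8 loci the group is too small for this share to be read against the 14.1%. SLC16A1, or MCT1, which moves lactate and pyruvate with a proton, had 49.1, 56 and 60.7 CPM with Am580 and 64.2, 75.6 and 115 CPM with DMSO. No Am580 library reached the DMSO range, and the log2 fold change of SLC16A1 was -0.54 ± 0.13 (SE, edgeR adjusted p = 0.0118). SLC16A6, which exports ketone bodies in zebrafish liver, had 10.9 to 19.6 CPM with Am580 and 16.5 to 31.9 CPM with DMSO (log2 fold change -0.60, edgeR adjusted p = 0.0429). The libraries of the groups overlapped in SLC16A6. SLC16A3, the lactate exporter MCT4 of glycolytic cells, was at 0.34 to 1.01 CPM with Am580 and 0.178 to 1.07 CPM with DMSO, and did not pass the test (edgeR adjusted p = 0.964).

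The remaining falls were spread over groups too small for their shares to be read against the 14.1% of all tested genes: 1 of 4 loci for peptides and urea, 1 of 10 for organic ions, 1 of 9 for vitamins and nucleosides, and, with SLC37A2, 3 of 9 for the ER and Golgi. SLC15A4 moves histidine and small peptides out of lysosomes of immune cells, and its locus MSTRG.23273 had 18.5, 22.1 and 25.9 CPM with Am580 and 33.8, 36.7 and 40.1 CPM with DMSO. The groups did not overlap, and the log2 fold change of this SLC15A4 locus was -0.75 ± 0.09 (SE, edgeR adjusted p = 6.4e-05). The other tested SLC15A4 locus, MSTRG.22313, was at 0.114 to 0.389 CPM with Am580 and 0.185 to 0.533 CPM with DMSO. It did not pass the test (log2 fold change -0.58, edgeR adjusted p = 0.339). SLC22A31, an organic ion family member without a settled substrate, had 2.90, 4.48 and 5.83 CPM with Am580 and 5.32, 9.50 and 14.2 CPM with DMSO; DMSO replicate 1 overlapped the Am580 range, and the log2 fold change was -1.12 ± 0.23 (SE, edgeR adjusted p = 0.00547). SLC29A1, the nucleoside carrier ENT1, had 23.1 to 41.4 CPM with Am580 and 39.7 to 43.7 CPM with DMSO (log2 fold change -0.39, edgeR adjusted p = 0.0409). In the Golgi group, the UDP-N-acetylglucosamine carrier SLC35A3 fell at 1 of its tested loci, MSTRG.6318, with 5.43 to 6.59 CPM with Am580 and 6.31 to 9.12 CPM with DMSO (log2 fold change -0.43, edgeR adjusted p = 0.0173). The locus of SLC35A4 holds more than 1 reference gene, so its fall of -0.21 on the log2 scale (edgeR adjusted p = 0.0252) may belong to either. The 3 other tested loci of family SLC35, any further SLC35A3 locus among them, did not pass the test. The phosphate carrier SLC20A1 (PiT1) had 182 to 235 CPM with Am580 and 173 to 256 CPM with DMSO (log2 fold change -0.04, 95% interval -0.26 to 0.18, edgeR adjusted p = 0.889).

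Of the 42 calls, 30 held when any 1 library was left out, and 12 did not, of which 11 are described. SLC7A2 was lost without Am580 replicates 1, 3, 4, 5 or 6 or DMSO replicates 1, 2, 4 or 6, with edgeR adjusted p up to 0.0956. SLC7A3 was lost without Am580 replicates 2 to 5 or DMSO replicates 1, 4, 5 or 6 (edgeR adjusted p up to 0.0712). SLC16A6 was lost without Am580 replicates 1 to 5 or DMSO replicates 1, 3, 4 or 5 (up to 0.0984). SLC25A1 passed only without Am580 replicate 1 or DMSO replicate 3, with edgeR adjusted p up to 0.103 otherwise. SLC27A2 passed only without Am580 replicates 2 or 5 or DMSO replicate 1 (up to 0.105 otherwise), and SLC29A1 only without Am580 replicates 1 or 6 (up to 0.0949 otherwise). SLC31A1 passed without Am580 replicates 1 or 6 or DMSO replicates 1 or 6 (up to 0.0836 otherwise). SLC35A4 was lost without Am580 replicates 2 or 4 or DMSO replicates 3 or 4 (up to 0.0645), and SLC25A44 only without Am580 replicate 3 (0.0501). SLC38A9 was lost without Am580 replicate 2 or any DMSO replicate but 3 (up to 0.0843), and SLC41A2 without Am580 replicates 2, 4 or 5 or DMSO replicates 3 or 5 (up to 0.0567). All 12 had an adjusted p between 0.0209 and 0.0492 with all libraries, and all kept their direction.

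Levels were compared between loci as CPM per kilobase of exon, since longer transcripts collect more reads. The median locus was at 3.0 CPM per kilobase, and 11 loci reached 100 CPM. SLC25A5 was the highest by far, at 570 ± 35 with Am580 and 596 ± 40.1 with DMSO (CPM per kilobase, SD, n = 6 each). SLC25A3 followed at 102 ± 22 with Am580 and 123 ± 11 with DMSO, SLC3A2 at 84.3 ± 6.34 with Am580 and 103 ± 17.1 with DMSO, and SLC25A4 at 81.5 ± 69.9 with Am580 and 90.7 ± 36.5 with DMSO. SLC37A2 was at 25.8 ± 3.53 with Am580 and 155 ± 31.3 with DMSO, so that in DMSO libraries it ranked on average just below SLC25A5 and in Am580 libraries near SLC16A1 and SLC25A11. Summed over the 180 loci, the level was 6306 to 6909 CPM with Am580 and 7555 to 7988 CPM with DMSO. Without SLC37A2 and family SLC25 the sums were 3539 to 4189.5 CPM with Am580 and 4191.8 to 4492 CPM with DMSO, so that the groups nearly met.

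**Figure D4:**
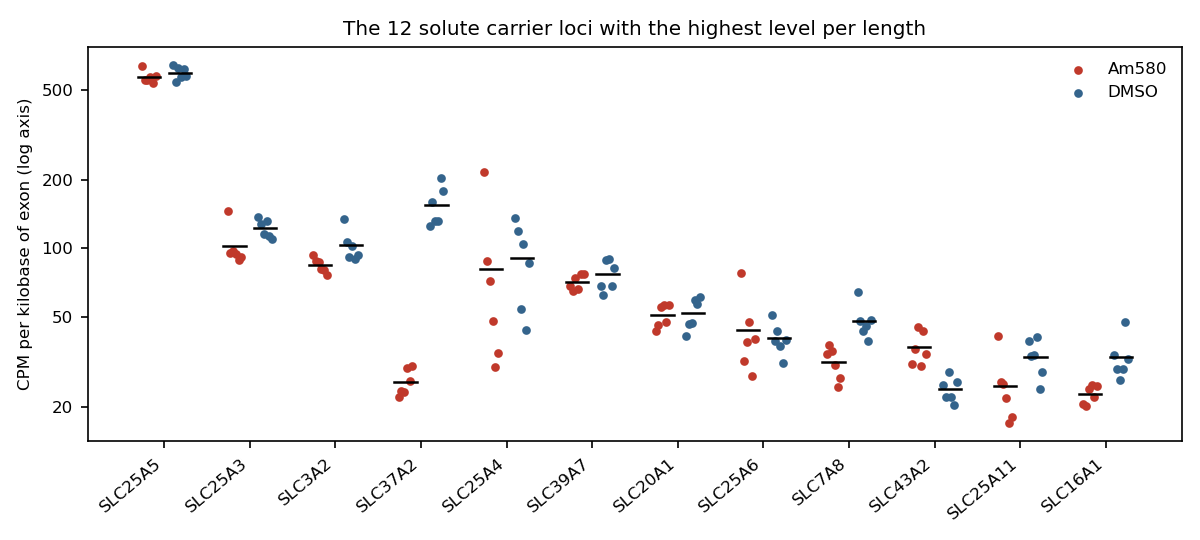
CPM per kilobase of exon (log axis) in each library for the 12 loci with the highest mean over all libraries, Am580 in red to the left of DMSO in blue, with bars at the group means. SLC25A5 lies above all others, SLC37A2 is the locus whose groups stand farthest apart, and SLC25A4 spreads widely within both groups.

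Replicate blastemas were close in most carriers: over the 121 loci with at least 5 CPM in both groups, the median coefficient of variation was 12.4% with Am580 and 13.2% with DMSO. A few loci varied far more, SLC25A4 and SLC4A1 among them. SLC25A4, the ADP/ATP carrier of muscle, had 281 CPM in Am580 replicate 1 and 39 to 114 CPM in the other Am580 libraries, and 56.9 to 177 CPM with DMSO. Am580 replicate 1 and DMSO replicate 1 were the highest of their groups in both SLC25A4 and the muscle markers, and Am580 replicate 5 the lowest of the Am580 libraries in both. SLC4A1, the anion exchanger band 3 of red blood cells, had 5.77 to 32 CPM with Am580 and 4.69 to 48.8 CPM with DMSO, and its groups overlapped (log2 fold change -0.20, edgeR adjusted p = 0.861). It was highest in Am580 replicate 2 and DMSO replicate 2, and lowest in Am580 replicate 1 and DMSO replicate 6. The summed erythroid markers were 128 to 259 CPM with Am580 and 186 to 359 CPM with DMSO, none of 5 tested loci passed the test, and the order of their sum was another one. That sum was highest in Am580 replicate 2 and DMSO replicate 1, and lowest in Am580 replicate 6 and DMSO replicate 5. Within the list, ALAS2, the erythroid enzyme of haem synthesis, had its highest and lowest libraries where SLC4A1 had them, at 65.6 and 15.9 CPM with Am580 and 83.4 and 9.72 CPM with DMSO. SPTB, a spectrin that red blood cells share with muscle and the most abundant of the list, did not: it had 127 CPM in Am580 replicate 1 and 187.5 CPM in DMSO replicate 6, the second highest of each group. Of the other list members, GATA1, at 0.247 to 2.95 CPM, had the same highest and lowest libraries as SLC4A1. EPOR, at 0.031 to 1.59 CPM, matched in all but its highest Am580 library, replicate 5. ANK1 was highest in Am580 replicate 4 and DMSO replicate 1, and lowest in Am580 replicate 6 and DMSO replicate 3. A second SPTB locus was at most at 0.0617 CPM. All were set beside SLC4A1 after their values were seen. These orders are descriptions of 12 libraries, and the part of muscle or blood cells in them was not tested.

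**Figure D5:**
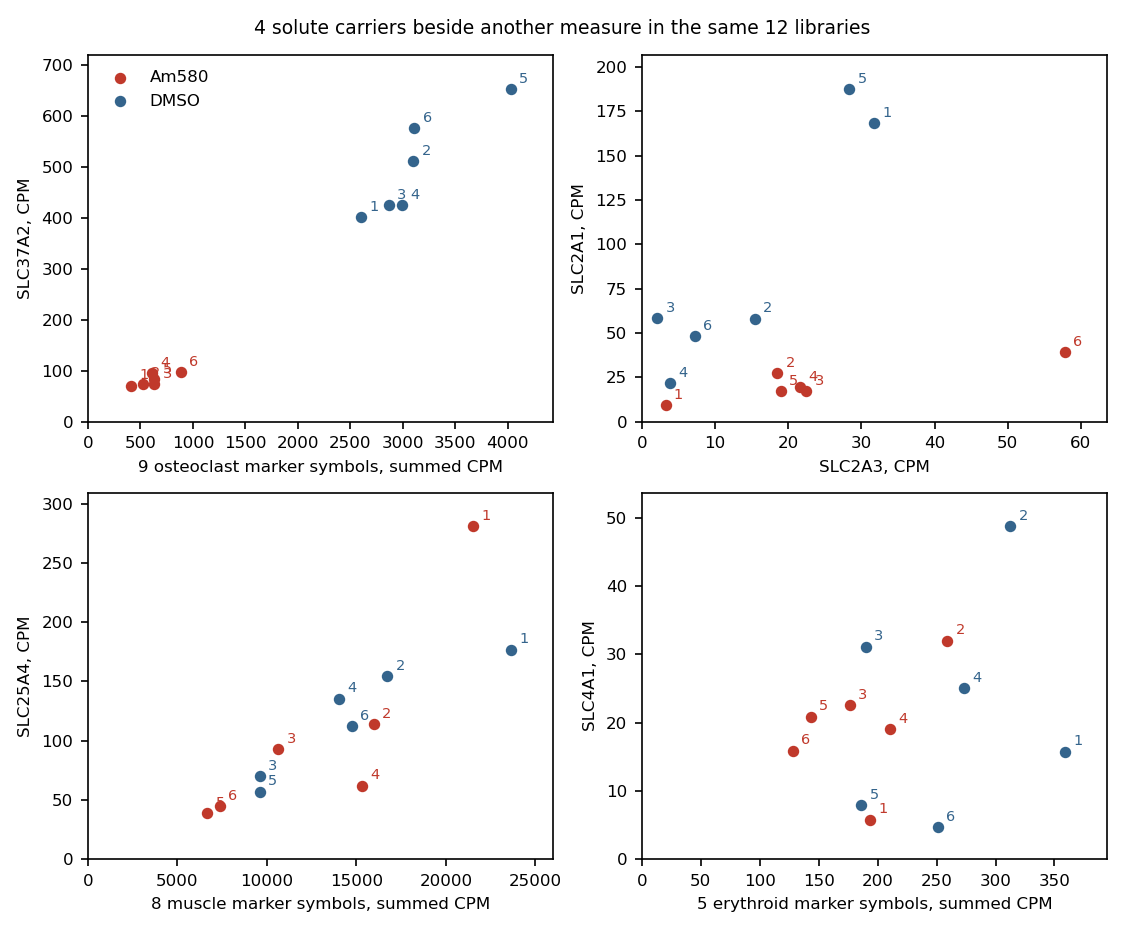
SLC37A2, SLC2A1, SLC25A4 and SLC4A1 (vertical axes, CPM) against the summed osteoclast markers, SLC2A3, the summed muscle markers and the summed erythroid markers (horizontal axes, CPM) in the 12 libraries, labelled by replicate number, Am580 in red and DMSO in blue. SLC37A2 and the osteoclast markers split by treatment without overlap, SLC25A4 is highest where the muscle markers are highest in each group, and the lowest SLC4A1 libraries, Am580 replicate 1 and DMSO replicate 6, are not those with the lowest erythroid sum.

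Genes that do related work were read from 3 lists. The lists were chosen with earlier results of these data known, so their shares cannot be weighed against those over all genes. Among tested genes with a reference transcript, 16.5% were called. Of 40 tested loci of carriers named outside the scheme, 12 fell and 1 rose (32.5% called, beside 14.1% of all tested genes), and the median log2 fold change was -0.03, beside 0.00432 over all tested genes. SLCO4A1, a carrier of thyroid hormone and other organic anions, had 1.38 to 20.3 CPM with Am580 and 33 to 118 CPM with DMSO (log2 fold change -3.07 ± 0.57, SE, edgeR adjusted p = 0.0026). SLC9B2, a sodium-proton exchanger that in mouse is abundant in osteoclasts, had 28.6 to 72.2 CPM with Am580 and 250.2 to 401 CPM with DMSO (log2 fold change -2.82 ± 0.20, SE, edgeR adjusted p = 1.58e-06). XPR1, the phosphate exporter, had 25.7 to 40.5 CPM with Am580 and 115 to 170.3 CPM with DMSO (log2 fold change -2.01 ± 0.12, SE, edgeR adjusted p = 5e-07). None of these 3 overlapped between groups. ANKH, which governs the export of pyrophosphate, had 11.9 to 51.3 CPM with Am580 and 56.3 to 88 CPM with DMSO (log2 fold change -1.45, edgeR adjusted p = 0.00363). Both subunits of the mitochondrial pyruvate carrier fell. MPC1 averaged 69.5 ± 13.8 CPM with Am580 and 109 ± 9.20 CPM with DMSO (SD, log2 fold change -0.65). MPC2 averaged 92.7 ± 7.01 CPM with Am580 and 167 ± 14.04 CPM with DMSO (SD, log2 fold change -0.85). The groups were apart in ANKH and in both subunits. UNC93B1, which escorts Toll-like receptors to endosomes, was the rise, at 0.76 on the log2 scale. Of the 18 tested loci for sodium pump subunits and carrier partners, 2 rose, SLC9A3R1 and the exchanger cofactor TESC (log2 fold change 0.65), and none fell (11.1% called). SLC9A3R1 and SLC9A3R2 are also among the 180 loci, so the rise of SLC9A3R1 is already counted above. Of 25 tested ABC transporters, which are driven by ATP, 6 fell and 2 rose (32% called, beside 14.1% of all tested genes), led by ABCG4, a sterol exporter, with 12.2 to 39.2 CPM with Am580 and 95.4 to 129.8 CPM with DMSO (log2 fold change -2.06 ± 0.23, SE, edgeR adjusted p = 5.52e-05). ABCA2 rose by 1.04 on the log2 scale, and ABCC9 by 0.87 at its locus MSTRG.13727. The libraries of the groups overlapped in both. The other tested ABCC9 locus, MSTRG.15860, had a higher level and did not pass the test (log2 fold change 0.36, edgeR adjusted p = 0.236).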

How the data were processed

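Stranded libraries of polyadenylated RNA were made from 12 blastemas and sequenced as paired reads. The authors trimmed the reads (Trimmomatic 0.36) and aligned them with HISAT2 2.1.0 against AmexG_v3.0.0. Transcripts were assembled over both treatments (StringTie 1.3.4d), and read pairs on exons were counted with strand by featureCounts of Subread 1.6.2. The authors deposited these counts per gene as whole numbers without normalization, and they were the values tested. The deposited assembly gives other values, 1-based transcript and exon coordinates, used for symbols, positions and exon length. The deposited abundance table was not used here.

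The analysis used R 4.3.3, limma 3.58.1, edgeR 4.0.16 and DESeq2 1.42.0. Plots were drawn with matplotlib 3.10.9 in Python 3.11.15, with scipy 1.17.1 and pandas 2.3.3. A gene was tested if 6 or more libraries held 10 or more counts. After TMM scaling, Am580 was set against DMSO with the legacy quasi-likelihood F test of edgeR and no covariates, and p-values were adjusted by Benjamini-Hochberg over all tested genes. Standard errors of log2 fold changes come from the F statistic. Each limit on a count of 0 covers counting error only, and p-values cover the spread between these animals. The test was checked on simulated counts.

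The members, role groups and lists were chosen with earlier results of these data known. Named loci are the up to 12 per direction with the largest called log2 fold change and at least 1 CPM, loci of 35 listed symbols, of which 25 had a tested locus, and the 5 highest per kilobase. The other called loci described, the uncalled ones outside this rule and the library patterns were added after their values were seen. Of the listed marker symbols, 9 of 10 were found for osteoclasts, 5 of 10 for macrophages, 6 of 10 for epidermis, 8 of 10 for muscle, 5 of 9 for erythroid cells, 6 of 8 for cartilage and 7 of 9 for connective tissue. Alternatives covered normalization, filter, test, replicate block, thinning and leaving out each library. No 2 libraries held the same counts. Of the called loci, 1 is not reported here.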

Additional observations from a re-analysis of the deposited data

Results flagged for a closer look

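In each group of 6 libraries, a library was singled out where its gap to the nearest other library exceeded Dixon's limit on the log2 scale. This was done for 62 loci, giving 124 groups, and 10 of these had such a library. The limit is set to flag about 5% of independent groups by chance. These groups share the same 12 libraries, and many of the loci were named for their calls, so the 10 cannot be weighed against that rate. Of the 10, Am580 replicate 1 accounted for 7. It was lowest among the Am580 libraries in SLC4A7 (23 CPM, others 33.1 to 37.4), SLC6A8 at MSTRG.11049 (7.99 CPM, others 13.8 to 18), SLC7A1 (30.5 CPM, others 43.1 to 52), SLC7A7 (56.9 CPM, others 72.8 to 80.7), SLC25A24 (7.17 CPM, others 10.8 to 12.2) and SLC41A1 (10.2 CPM, others 11.9 to 13). It was highest in SLC25A3 (1013 CPM, others 612 to 669). Among DMSO libraries, replicate 3 was lowest in SLC6A8 at MSTRG.11959 (19.9 CPM, others 30.9 to 37.3) and in SLC16A3 (0.178 CPM, others 0.628 to 1.07), and replicate 1 was highest in SLC27A2 (0.908 CPM, others 0.0296 to 0.176).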

How the results depend on the processing

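The counts of solute carrier loci that rose or fell stayed within 1.5 times of 42 under every alternative tried. They were 42 with DESeq2 size factors, limma-voom, filterByExpr and the filter of 10 counts in every library, 34 with library size only, 38 with upper-quartile scaling or no filter, 55 with DESeq2's own test, 45 with edgeR's current method, 41 with its robust fit, with thinned counts or without loci of several reference genes, and 33 to 47 (7 to 11 higher, 25 to 36 lower; all genes 2980 to 3842) when each library was left out. Over all genes the calls were 3660 in the main fit, 3634 with DESeq2 size factors, 3643 with limma-voom and 3637 with filterByExpr. They were 3249 with 10 counts in every library, 3614 with library size only, 3652 with upper-quartile scaling and 3658 with no filter. DESeq2's own test called 4707 genes, edgeR's current method 3812, its robust fit 3646 and thinned counts 3484. After seeing the data, 41 solute carrier calls were found among carriers proper and 40 with 1 locus per symbol. With library size only the median of all genes was 0.0545 and that of the set -0.0656. Replicate numbers do not pair the animals: same-numbered libraries correlated at -0.172 to 0.235, and only replicate 2 was nearest its own number. A replicate block gave 43 (34 lower, 9 higher), beside 3440 calls over all genes. Of the 43, 34 were shared, and SLC2A1 then missed the threshold (edgeR adjusted p = 0.105).

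Signs turned only in loci that did not pass the test. With library size only the log2 fold change was 0.00428 for SLC6A6, 0.00212 for SLC11A2, 0.00513 for SLC16A3 and 0.0133 for SLC20A1. With limma-voom it was 0.0703 for SLC4A1, 0.0604 for SLC6A6 and 0.0347 for SLC16A3. With the replicate block it was 0.00876 for SLC4A1, 0.116 for SLC6A6 and 0.0196 for SLC16A3. Leaving out each library gave -0.41 to 0.194 for SLC4A1, -0.255 to 0.466 for SLC6A6, -0.0969 to 0.00743 for SLC11A2, -0.235 to 0.147 for SLC16A3, -0.0941 to 0.0177 for SLC20A1, -0.727 to 0.0218 for SLC25A4, -0.105 to 0.236 for SLC25A6 and -0.354 to 0.0163 for SLC40A1. The cause was not tested. Depth limits loci near 1 CPM, such as SLC27A2.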
